A study of Mus musculus with 19 samples.

Results

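SOX9 binding was mapped in mouse glial progenitor cells (GPC), dividing cells that can give rise to astrocytes and oligodendrocytes. The list of bound sites comes from chromatin immunoprecipitation and sequencing (ChIP-seq) with an antibody to SOX9, and it joins 3 GPC samples into 1 list. All 2943 listed peaks were used, each with the gene that the authors paired with it and the signed distance to the start site of that gene. Peaks that overlapped were merged, which gave 2747 separate SOX9 regions, out of 18219 regions over the SOX9, SOX3 and NFIA lists of the series. The regions were paired with 2187 gene names, called target genes below. The word records the pairing by position and not an effect of SOX9 on the gene. Because the 3 samples share 1 list, no spread between replicates can be given for any binding value.

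GPC were made from mouse embryonic stem cells kept without feeder cells. Neural differentiation was started with 0.1 µM all-trans retinoic acid in a serum-free medium. At day 8 the cells carrying the surface antigen A2B5 were sorted with magnetic beads, and they were then grown with 10 ng/ml of EGF and FGF2. RNA levels came from 4 GPC libraries and 3 libraries of glia, also derived from embryonic stem cells. The labels carry the same culture text for both groups, and the steps that led to glia are not stated in them. No genetic change or further treatment is labelled in either group. Peaks of SOX3 (2 samples) and NFIA (2 samples), both from GPC, served for comparison, and the 2 inputs and 3 H3K27Ac (acetylated histone) samples were not analysed here.

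SOX9 is a transcription factor of the SOX family, whose members bind DNA through a high-mobility-group domain and often act with a partner protein at distant enhancers. In the developing central nervous system it is known for starting gliogenesis and for maintaining neural stem cells, and outside the nervous system it is the main regulator of cartilage formation. NFIA, a nuclear factor I protein, is induced by SOX9 during gliogenesis and acts with it on astrocyte genes. SOX3 belongs to the SOX group of proliferating neural progenitors, together with SOX2.

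Reads counted in genes ran from 12836998 to 22439837 in the GPC libraries and from 6897294 to 17369367 in the glia libraries. GPC replicate 3 was the deepest library and stood apart from the other GPC libraries. The chi-square of its counts against theirs came to 25.8 to 29.9 per gene, and that among the other 3 to 2.05 to 3.59. Calls of named genes that changed without it are given below, as are the counts of changed target genes without it. Whether the numbered libraries are separate cultures is not labelled, and each p-value therefore measures the spread between these samples alone, which may be technical. Of the 8 genes used to check the label of the progenitors, Fabp7, Olig1 and Olig2 stood at 5529, 1110 and 534 RPKM (reads per kilobase of gene model, scaled to library depth) and Cspg4 was the lowest at 5.98 RPKM. Oct4 (Pou5f1), the defining factor of pluripotent cells, was at 0 in every GPC library, and Nanog was at 0.284 RPKM. The microglial genes Aif1 and Csf1r were at 0.0109 and 0.00644 RPKM, and the endothelial genes Cdh5 and Pecam1 at 0.0319 and 0.114 RPKM. On longer lists, the highest microglial gene stood at 26.8 RPKM and the highest endothelial gene at 1.76 RPKM. Of the astrocyte genes checked, Aldh1l1 was highest at 26.7 RPKM and Aqp4 lowest at 2.17 RPKM. Oligodendrocyte genes ran from 0.133 (Mog) to 8.88 RPKM (Mbp), and neuronal genes from 0.479 (Syt1) to 16.3 RPKM (Tubb3). The mesenchymal genes Dcn and Col1a1 were present at 17.2 and 51.3 RPKM in GPC and at 140 and 191 RPKM in the glia libraries. In bulk libraries fewer cells of a type and less RNA per cell cannot be told apart.

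A small group of SOX9 regions lay on promoters, and these promoters shared a short sequence. The centre of a SOX9 peak lay within 300 bp of the start site for 147 target genes, of which 125 matched a gene of the RefSeq promoter table (assembly GRCm38.p6, used for its sequences and names only). Below are the 250 bases upstream of the start site, 5′ to 3′ on the strand of the gene, for 7 of the 8 genes with the highest RNA level in GPC among those with a region within 1 kb. The other one, H2afx, is left out because it has several start sites. Capitals mark every copy of CCAAT or of its reverse complement ATTGG, the core of the CCAAT box, a promoter element bound by the factor NF-Y.
Calr: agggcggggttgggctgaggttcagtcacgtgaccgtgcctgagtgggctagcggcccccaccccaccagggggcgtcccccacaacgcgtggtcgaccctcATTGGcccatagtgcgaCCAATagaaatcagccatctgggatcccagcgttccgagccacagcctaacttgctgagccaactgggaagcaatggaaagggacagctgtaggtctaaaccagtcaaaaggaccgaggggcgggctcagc
Hnrnpl: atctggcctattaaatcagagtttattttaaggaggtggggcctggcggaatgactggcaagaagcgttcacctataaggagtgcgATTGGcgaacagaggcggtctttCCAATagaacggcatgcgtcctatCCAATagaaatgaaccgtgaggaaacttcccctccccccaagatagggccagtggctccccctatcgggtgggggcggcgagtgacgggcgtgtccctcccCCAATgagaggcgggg
Hn1: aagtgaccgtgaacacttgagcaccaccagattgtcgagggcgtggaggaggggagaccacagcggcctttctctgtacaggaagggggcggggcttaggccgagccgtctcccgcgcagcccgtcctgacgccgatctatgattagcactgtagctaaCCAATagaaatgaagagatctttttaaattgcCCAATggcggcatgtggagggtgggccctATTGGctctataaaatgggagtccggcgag
Ube2c: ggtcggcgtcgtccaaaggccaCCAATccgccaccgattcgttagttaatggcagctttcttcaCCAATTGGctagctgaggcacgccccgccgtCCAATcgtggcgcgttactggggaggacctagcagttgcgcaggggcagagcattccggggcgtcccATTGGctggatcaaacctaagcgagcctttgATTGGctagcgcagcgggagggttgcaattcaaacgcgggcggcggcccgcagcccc
Anp32a: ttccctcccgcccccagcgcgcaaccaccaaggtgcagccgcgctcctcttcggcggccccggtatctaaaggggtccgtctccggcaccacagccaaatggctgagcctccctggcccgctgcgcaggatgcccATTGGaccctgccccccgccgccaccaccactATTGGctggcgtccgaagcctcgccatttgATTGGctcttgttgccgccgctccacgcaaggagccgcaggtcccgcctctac
Anp32e: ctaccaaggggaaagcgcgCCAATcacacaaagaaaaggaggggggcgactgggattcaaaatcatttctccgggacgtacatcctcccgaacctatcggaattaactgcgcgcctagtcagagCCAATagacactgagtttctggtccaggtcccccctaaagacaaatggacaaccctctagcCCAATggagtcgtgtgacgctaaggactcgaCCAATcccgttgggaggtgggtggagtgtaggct
Hsd17b12: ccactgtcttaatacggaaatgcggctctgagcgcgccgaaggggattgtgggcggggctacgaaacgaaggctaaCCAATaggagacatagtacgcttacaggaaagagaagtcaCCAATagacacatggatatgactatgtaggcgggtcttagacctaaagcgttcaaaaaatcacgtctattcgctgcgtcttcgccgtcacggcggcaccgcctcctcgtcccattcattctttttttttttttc

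All 7 of these promoters held at least 2 copies, and the promoter of Ube2c, which encodes a ubiquitin-conjugating enzyme of mitosis, held 6, 2 of them overlapping. The promoters of Hnrnpl, a splicing factor gene, and Anp32e, which encodes a histone chaperone, held 4 copies each. Those of Hn1 (Jpt1 in RefSeq) and Anp32a held 3, and those of Calr, a chaperone gene of the endoplasmic reticulum, and Hsd17b12, an enzyme gene of fatty acid elongation, held 2.

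Over all promoters with a SOX9 peak centre within 300 bp of the start site, 116 of 156 held CCAAT on either strand in their 250 upstream bases, or 74.4% (95% Wilson interval 67.0 to 80.6%). The number of promoters exceeds the number of genes because some genes have several start sites. Start sites of the same gene can share upstream bases. The intervals here count each promoter as separate and may therefore be too narrow. It was held by 33.8% of all 32851 mouse promoters listed, and of the promoters of genes at 100 RPKM or more in GPC 38.3% did. At least 2 copies were found in 60.9% of the promoters with a SOX9 peak and in 10.1% of all promoters. Leaving out the histone genes gave 74.8% and 61.9%. The share was 36.1% (26.0 to 47.6%) where the nearest region lay 300 bp to 1 kb away, 43.3% (37.9 to 48.7%) at 1 to 10 kb and 37.1% (33.1 to 41.4%) beyond 100 kb. The 24 promoters with a SOX3 peak centre within 300 bp, which belong to 15 genes, held it in 13 cases, or 54.2% (35.1 to 72.1%).

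The offsets of the copies from the centres of the SOX9 peaks were as follows. Of 60 genes with a single start site and a peak centre in the 250 bases before it, 55 had a copy, and the copy nearest to the centre was within 25 bp of it in 35 genes and within 50 bp in 47. The median offset was -0.5 bp and the median distance 14.5 bp. In Anp32e the nearest copy lay 4.5 bp from the centre, in Hn1 9.5 bp, in Ube2c 10.5 bp and in Anp32a 11.5 bp. It lay farther away in Calr (29.5 bp), in Hsd17b12 (59.5 bp) and in Hnrnpl (63.5 bp), whose centre was 225 bp upstream of the start site. In the same 60 genes ACAATG, a SOX-type word, was present in 7, in 4 of them within 25 bp of the centre (median distance 21 bp), and the related ACAAAG in 5, in 3 of them within 25 bp (median 25 bp). No distance expected for copies placed without regard to the peaks was computed. ACAATG was found on either strand in 8.33% of the 156 promoters and in 10.7% of all promoters, and ACAAAG in 12.8% and 16.5%. The NFI palindrome, TTGGC and GCCAA with 5 bases between them, was in none of the 156 and in 0.0365% of all promoters. A word that rare is hardly ever met in 156 promoters, so its absence decides nothing. The ends of the palindrome share the letters TTGG and CCAA with the CCAAT box, and single copies of TTGGC were not counted. These matches describe letters in a window and are not tests of what was bound, and they were searched after the peak positions had been seen. Peaks away from promoters could not be searched, since no mm9 genome was used here.

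**Figure D1:**
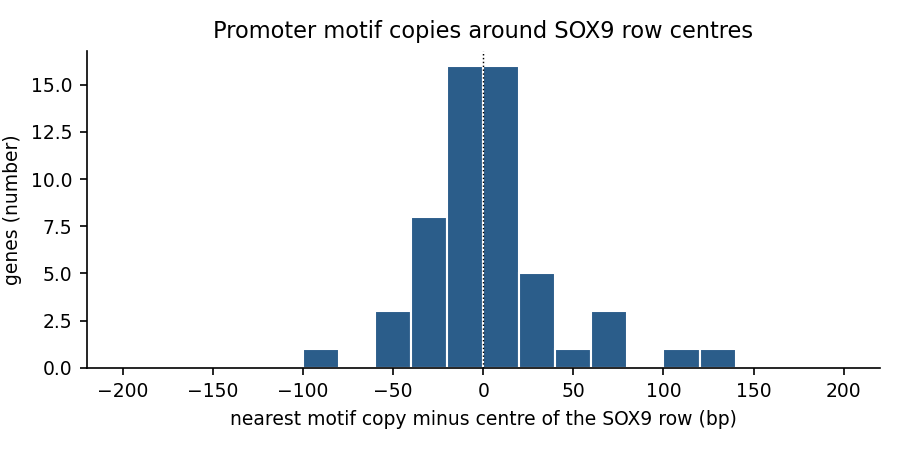
Distance in bp from the centre of the SOX9 peak to the nearest CCAAT or ATTGG copy (horizontal axis), as the number of genes per 20 bp bin (vertical axis), for 55 of 60 genes with 1 start site and a peak centre in the 250 bases upstream of it. The bins around 0 are the highest, and 35 genes lie within 25 bp.

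Promoters were a minority of the sites. Of the 2747 SOX9 regions 220 (8.01%, 95% Wilson interval 7.05 to 9.08%) lay within 1 kb of the paired start site, 354 (12.9%) at 1 to 10 kb, 1274 (46.4%) at 10 to 100 kb and 899 (32.7%) farther away. These intervals cover counting error only. The median distance was 47188 bp, with quartiles of 13631.5 and 148822 bp. The SOX3 list, which also gives a gene and a distance per peak, had 2.41% (1.72 to 3.37%) of its 1367 regions within 1 kb and a median of 53592 bp. Negative distances are upstream of the gene, since their sign followed the strand in 364 of 365 genes that could be checked. Regions within 1 kb were upstream in 144 of 220 cases (65.5%, 59.0 to 71.4%), whereas those at 10 to 100 kb were upstream in 41.0% (38.3 to 43.7%). The region nearest to a start site was 2 bp from it. The farthest was paired with Ptprd, a receptor tyrosine phosphatase gene of neurons, from 2258409 bp upstream (mm9 chr4:78037896-78038496).

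Sites shared with SOX3 and with NFIA were largely separate groups. A SOX3 peak overlapped 289 SOX9 regions (10.5%, 9.43 to 11.7%) and an NFIA peak 773 (28.1%, 26.5 to 29.9%). Both factors overlapped 36 regions, and 1721 (62.7%) overlapped neither. Seen from the other lists, 299 of 1367 SOX3 regions (21.9%) and 805 of 14105 NFIA regions (5.71%) met a SOX9 region. Among the SOX9 regions shared with SOX3, 12.5% (9.14 to 16.8%) also overlapped NFIA, against 30.0% (28.2 to 31.8%) of the others. Within 1 kb of a start site sharing was rarer, at 2.27% (0.975 to 5.21%) for SOX3 and 13.6% (9.72 to 18.8%) for NFIA. At 1 to 10 kb the shares were 11.3% and 37.3%, at 10 to 100 kb 11.5% and 27.5%, and beyond 100 kb 10.8% and 29.0%.

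**Figure D2:**
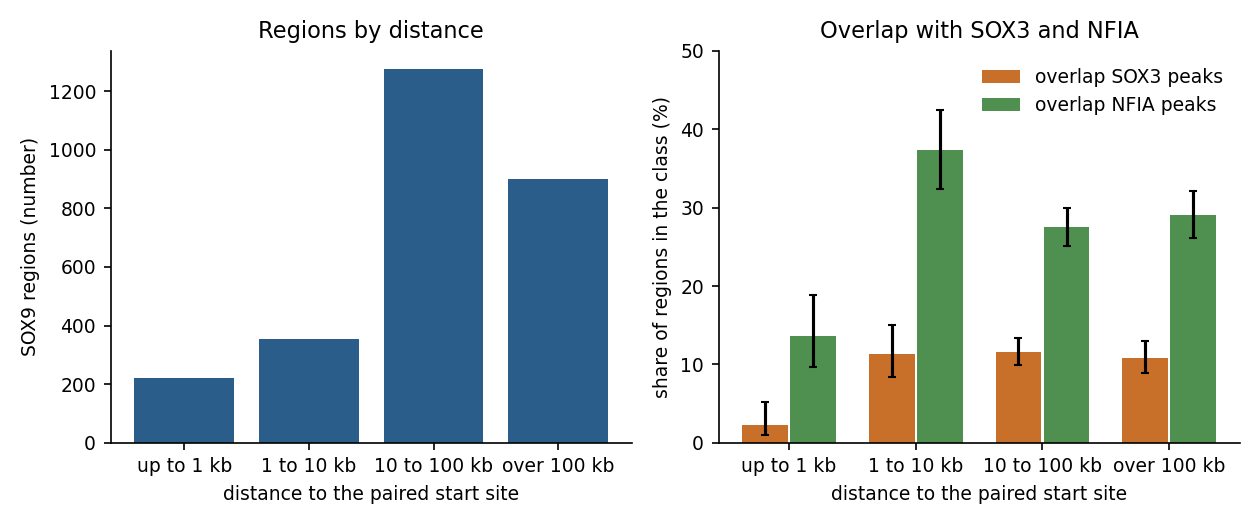
Left, number of SOX9 regions in each class of distance to the paired start site. Right, share of the regions of each class (%) that overlap a SOX3 peak or an NFIA peak by 1 bp or more, with 95% Wilson intervals as error bars. Both shares are lowest within 1 kb, at 2.27% and 13.6%, and the NFIA share is highest at 1 to 10 kb, at 37.3%.

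Among the 36 regions shared by all 3 factors, the one nearest to a start site lay 60 bp upstream of Ppp6r3, a regulatory subunit gene of protein phosphatase 6 (chr19:3575509-3576606). The next lay 575 bp upstream of Ctnna3, an alpha-catenin gene (chr10:62891972-62892572), which was at 0.0699 RPKM in GPC. The others of the nearest 5 were 1592 bp downstream of the start site of Spata2, 3279 bp downstream of that of Fgfrl1, which encodes an FGF receptor without a kinase domain, and 3785 bp upstream of Aurkb, a mitotic kinase gene whose 3 regions form a run, as defined below, near 18 tRNA genes.

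Most target genes had a single region. Of the 2187 names 1803 (82.4%) had 1 region, 274 had 2, 79 had 3 and 31 had 4 or more. Among the names with the most regions, some had regions far apart. Lphn3, a gene for an adhesion receptor of synapses, had 6 regions spread from 1345 kb upstream to 979 kb downstream of its start site. Pcdh9, a protocadherin gene, had 5 from 247 kb upstream to 1903 kb downstream, and Lsamp, a cell adhesion gene of the limbic system, had 5 from 832 to 73.3 kb upstream. Others with 4 regions included Sox2, the cadherin gene Cdh11, the nuclear kinase gene Vrk1 and the sorting receptor gene Sorl1, of which the last 3 were named after their values were seen. Of the 27 names with 4 or more regions and a measured RNA level, 12 were below 1 RPKM in GPC. Vmn2r121, a vomeronasal receptor gene at 0 RPKM in every library, had 8 regions from 434 kb downstream to 600 kb upstream, none of them in the runs described next. Slc39a11, Gm10311, Tex14 and Pabpc6 had 5 each, and the last pair, at 0.0985 and 0.0610 RPKM, was named after its values were seen. Other names had some or all of their regions side by side in short stretches of the genome, as with Zfp868 (10 regions), Abt1 (9), Adam29 (9), Zfp184 (8), BC107364 (6) and Zfp709 (5).

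The regions side by side were counted as runs, which means 3 or more regions each at most 10 kb from the next. There were 22 runs with 105 regions, or 3.82% of the SOX9 regions. Runs were not particular to SOX9, since the same rule placed 7.17% of SOX3 regions and 12.9% of NFIA regions in runs of their own. Of the 31 names with 4 or more SOX9 regions, 10 had 5 or more tRNA genes among their 50 nearest neighbours in the RefSeq gene order. A gene of this kind was paired in 18 of the 22 runs. Of the 42 names in runs 33 (78.6%) had 5 or more tRNA genes nearby, compared with 1.82% of the names outside runs and 1.74% of all protein-coding genes. However, 51 of the 105 regions in runs lay in 1 stretch of chromosome 13 (chr13:21252398-23854404). Names in runs are therefore often neighbours and not independent units. The run with the most regions held 10 over 37.02 kb of chromosome 13 (chr13:23518725-23555744), paired with Abt1 and Btn1a1, where up to 36 of the 50 neighbours were tRNA genes. Chromosome 13 carries 105 of the 430 tRNA genes in the table, and it held 7.50% (6.57 to 8.54%) of the SOX9 regions. Its share was 5.87% (5.03 to 6.83%) without the runs, 5.71% in the SOX3 list and 5.10% in the NFIA list.

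NFIA peaks overlapped 74 of the 105 regions in runs (70.5%, 61.2 to 78.4%), against 26.5% (24.8 to 28.2%) outside them. Regions of a run are neighbours and not independent, so the intervals for runs may be too narrow. SOX3 peaks overlapped 1 region in the runs (0.952%, 0.168 to 5.20%) and 10.9% (9.77 to 12.1%) outside. In the runs at Fcgr4 and Fcgr3, Hfe2, Olfr1423 and Casp16 every region overlapped NFIA. Histone genes were a part of this group. Of 27 histone names in the list 18 had a region in a run and 23 a region within 1 kb of the start site. A run of 6 regions at Hist1h1c and other histone genes had no more than 1 tRNA gene among the neighbours of a paired gene, and 2 of its regions overlapped NFIA. The 3 runs with no tRNA gene nearby were at Adam29, Zfp868 and Zfp709 on chromosome 8. The 9 regions of the Adam29 run (chr8:57975146-57999313) overlapped NFIA in no case, and 7 of the 9 in the Zfp868 run (chr8:72069127-72095745) did. Adam29, a gene of testis, was at 0 RPKM in every library of both groups. Input samples were not analysed here, and whether such stretches also stand out without an antibody was not tested.

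**Figure D3:**
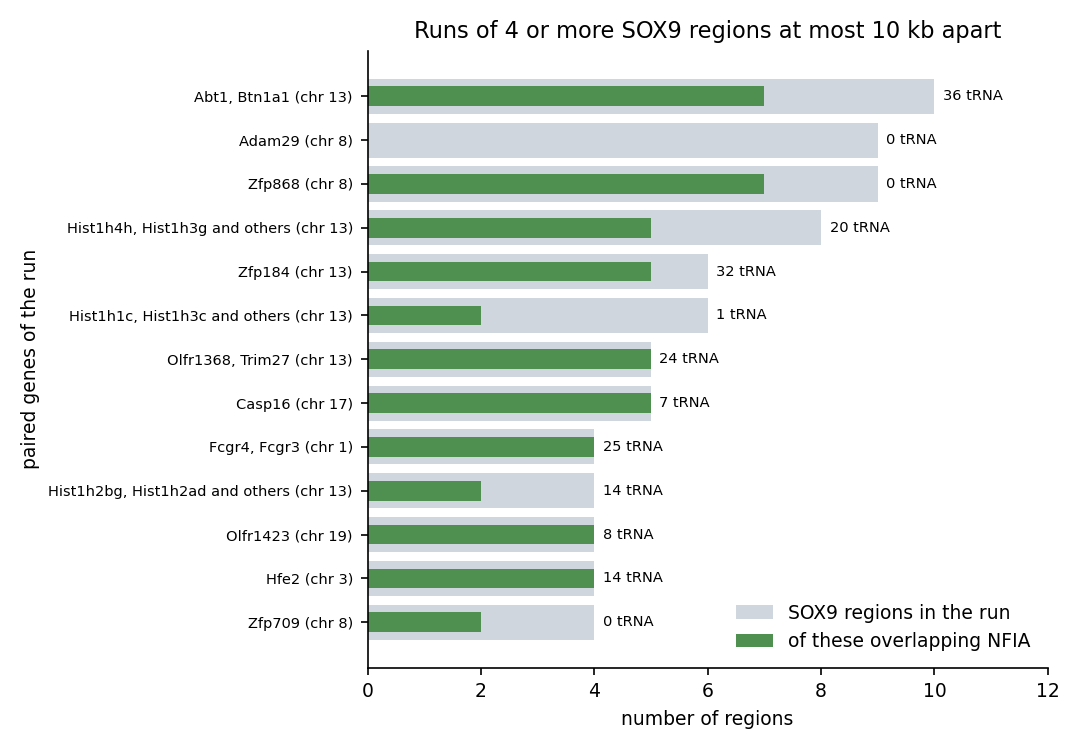
The 13 runs, of 22, with 4 or more SOX9 regions at most 10 kb apart, each named by its paired genes and chromosome. Bars give the number of regions (grey) and of those overlapping an NFIA peak (green), and the figure beside a bar is the largest number of tRNA genes among the 50 neighbours of a paired gene. The Abt1 and Btn1a1 run has the most regions, 10, and the Adam29 run has none that overlaps NFIA.

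Target genes were more often transcribed in GPC than other genes. Of the 2187 names 2051 were found in the expression table, which is 8.93% of its 22958 genes. Their median level was 6.38 RPKM (quartiles 0.249 and 22.2), compared with 1.52 RPKM over all genes and 1.19 RPKM over genes not paired with a region. In the single GPC libraries the median of the targets ran from 6.12 to 6.50 RPKM. At least 1 RPKM was reached by 67.1% of the targets and by 52.4% of all genes, and 200 targets were at 0. Genes whose nearest region lay within 1 kb had a median of 10.5 RPKM and 76.3% at 1 RPKM or more, and those with regions only beyond 100 kb had 3.93 RPKM and 63.6%.

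Levels also differed with the factor that shared the region. Genes with a region shared with SOX3 had a median of 13.4 RPKM, and 78.1% of these 260 genes reached 1 RPKM. The 618 genes with a region shared with NFIA had 3.25 RPKM and 58.6%, and the 1224 genes sharing with neither factor had 6.44 RPKM and 69.2%. The medians were 6.25, 6.75 and 9.17 RPKM for genes with 1, 2 and 3 regions and 1.54 RPKM for the 27 measured genes with 4 or more. The 39 genes with a region in a run had a median of 0.697 RPKM. Histone genes made up 18 of the 42 names in runs, and reads of close copies cannot be told apart, so the level of such genes is uncertain.

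**Figure D4:**
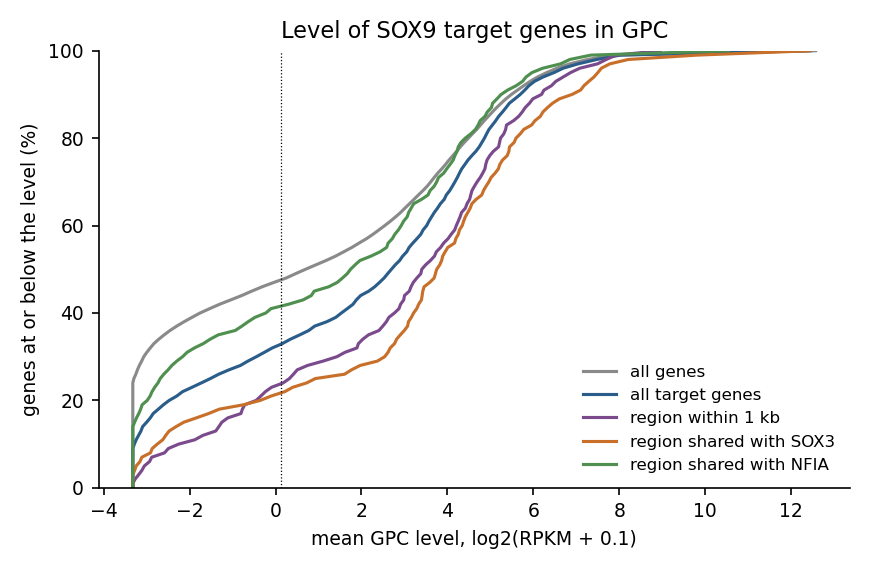
Share of genes (%) at or below each mean GPC level, given as log2(RPKM + 0.1), for all 22958 genes, all 2051 SOX9 target genes and targets with a region within 1 kb, shared with SOX3 or shared with NFIA. The dotted line marks 1 RPKM. Curves farther right mean higher levels, with the SOX3-shared genes (median 13.4 RPKM) to the right of the NFIA-shared genes (3.25 RPKM) over most of the range.

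The shares of target genes that changed in glia were near those of all genes. Of 1575 targets with enough counts to test, 604 rose (38.3%), where 35.2 percent of all 13588 tested genes rose (two-sided quasi-likelihood test of edgeR, p adjusted over all genes by Benjamini-Hochberg and called under 0.05). A fall was called for 554 targets (35.2%), and 35.2 percent of all tested genes fell. Rises of at least 2-fold were found in 320 targets (20.3%), beside 16.5 percent of all tested genes, and falls of at least 2-fold in 184 (11.7%), beside 9.24 percent. The median log2 change of the targets was 0.04, that of all genes 0.00. Among targets with a region within 1 kb 33.5% rose and 39.3% fell, and 9.83% rose and 12.7% fell at least 2-fold. In targets sharing a region with SOX3, 33.6% rose and 39.5% fell, and in those sharing one with NFIA 39.0% rose and 32.9% fell. Without GPC replicate 3 the targets gave 659 rises (41.9%, all genes 38.1%) and 596 falls (37.9%, all genes 37.7%).

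The promoter-bound genes with the highest level in GPC were lower in glia. Calr stood at 491, 488, 508 and 499 RPKM in GPC and 359, 335 and 365 in glia, a log2 change of -0.52 ± 0.06 (SE; adjusted p = 4.11e-05, edgeR). H2afx, which encodes the histone variant that marks DNA breaks, gave 274, 255, 318 and 259 RPKM in GPC and 77.5, 64.9 and 86.2 in glia (-1.88 ± 0.12). Ube2c gave 232, 219, 169 and 225 RPKM in GPC and 46.1, 42.1 and 44.7 in glia (-2.27 ± 0.11). The groups did not overlap in any of these 3 genes. The other 5 genes also fell, with log2 changes of -1.23 for Anp32e, -1.10 for Hn1, -0.78 for Hsd17b12 and -0.60 for both Hnrnpl and Anp32a, and their groups did not overlap either. These genes were chosen for their high level in GPC, so their direction is a description only. Over all tested genes 35.2 percent fell. The share of all genes with groups apart is not given here. Groups apart therefore do not set these or other named genes off from the rest.

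Genes of the 23 lists of glial, progenitor, signalling and other cell types were paired with a SOX9 region in 81 of 407 cases (19.9%), against 8.93% of the expression table. The share was 44.0% of the neural progenitor genes (11 of 25), 42.1% of the SOX family (8 of 19), 41.7% of the Hedgehog pathway (5 of 12), 30.3% of the astrocyte genes (10 of 33) and 27.3% of the genes of oligodendrocyte precursors (6 of 22). Genes of other cell types and tissues were also paired, with 7 of 19 neuronal, 4 of 10 endothelial and 6 of 23 cartilage genes. The lists share members, and the paired cartilage genes include Sox5, Sox6 and Sox9, which are also counted in the SOX family. None of the 34 ribosomal protein genes, 39 Hox genes and 10 microglial genes was paired. With regions up to 100 kb alone, 57 of the 407 listed genes remained, beside 1535 of the 22958 genes of the expression table.

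Of the 8 SOX family genes with a region 3 had one within 100 kb. Sox9 itself was paired with 1 region, 119 kb downstream of its start site (chr11:112761975-112762575), and its RNA was at 55.6 ± 4.75 RPKM in GPC (SD, n = 4). Another 5 regions paired with Slc39a11, a zinc transporter gene, lie on the same side of Sox9, at 405, 406, 439, 513 and 658 kb from the Sox9 start site implied by the deposited distance. No other region lay within 1 Mb of it. The region at 658 kb (chr11:113300921-113301521) was shared with SOX3. These distances were examined after the values had been seen.

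Sox2, the SOX factor of neural stem cells, had 4 regions, at 238, 208 and 206 kb upstream and 502 kb downstream, and the region farthest upstream (chr3:34310295-34310895) was shared with SOX3. Its RNA was at 150.1 ± 10.1 RPKM in GPC (n = 4) and 181 ± 15.6 RPKM in the glia libraries (n = 3), and the groups overlapped. Its change of 0.24 on the log2 scale passed the test (adjusted p = 0.0273, edgeR) but the call was lost when GPC replicate 1, 2 or 4 or glia replicate 1 or 3 was left out (adjusted p from 0.0603 to 0.109). Sox6 had 3 regions, the nearest at 265 kb, Sox4 had 2, the nearer at 108 kb, and Sox5 had 2, at 27.4 and 459 kb downstream. Sox3 and Sox10 had none. Nfia was paired with 1 region 291 kb upstream (chr4:97152804-97153404) and Nfib with 1 at 114 kb upstream, and both were shared with NFIA. Nfia rose from 12.1 ± 2.49 to 23.3 ± 3.34 RPKM and Nfib fell from 32.4 ± 4.34 to 25.3 ± 2.74 RPKM (log2 changes 0.89 ± 0.15 and -0.40 ± 0.11, adjusted p = 0.000637 and 0.00762 by edgeR).

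Astrocyte genes with a SOX9 region changed in both directions. Of the 10, 7 rose and 3 fell, with a median log2 change of 1.34, and of all 33 on the list 24 rose and 8 fell. Gfap, the intermediate filament gene of astrocytes, had 1 region 1410 bp upstream (chr11:102759555-102760155). It stood at 5.64, 5.92, 15.4 and 6.52 RPKM in GPC and at 3353, 2931 and 3490 RPKM in glia, a log2 change of 8.54 ± 0.44 (SE; adjusted p = 1.49e-06, edgeR). The groups lay far apart, although GPC replicate 3 exceeded the other GPC libraries. Aqp4, the water channel of astrocyte endfeet, had 2 regions at 38.4 kb upstream and 63.5 kb downstream and gave 1.56, 2.18, 2.78 and 2.15 RPKM in GPC and 107, 113 and 100.4 in glia. Id4, an inhibitor of bHLH factors, had 1 region at 62.7 kb shared with SOX3 and rose from 6.93 ± 3.06 to 220 ± 19.3 RPKM. Sparcl1, a secreted matrix protein gene of astrocytes, had a region 3514 bp downstream of the start site that was shared with SOX3, and rose from 195 ± 11.8 to 1045 ± 8.55 RPKM.

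Slc1a3, Aldh1l1 and Olig1 were each paired with 2 or 3 regions and were lower in glia. Slc1a3, the glutamate transporter of radial glia and astrocytes, had 3 regions at 50.9 kb downstream and 10.2 and 70.5 kb upstream. It gave 293, 306, 297 and 306 RPKM in GPC and 185, 193 and 168 in glia, a log2 change of -0.75 ± 0.07 (adjusted p = 3.62e-06, edgeR). Olig1, a bHLH factor of the oligodendrocyte lineage, had 3 regions, 1 of them 6167 bp upstream (chr16:91263014-91264147) and shared with SOX3. Its levels were 1166, 1111, 1049 and 1116 RPKM in GPC and 530, 393 and 564 in glia (-1.19 ± 0.12, adjusted p = 9.23e-06). Aldh1l1, a folate enzyme gene, had 2 regions at 18.8 and 15.5 kb upstream and gave 29.5, 30.03, 17.0 and 30.4 RPKM in GPC and 11.3, 12.9 and 11.9 in glia. In all 3 genes the groups stayed apart, and in Aldh1l1 GPC replicate 3 lay nearest to glia.

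Of the 6 genes of oligodendrocyte precursors with a region 2 rose and 3 fell, and on the whole list of 22, 13 rose and 8 fell. None of the 6 had a region that overlapped NFIA. Pdgfra, the PDGF receptor of these cells, had 1 region at 71.9 kb and rose from 20.7 ± 2.99 to 53.6 ± 4.61 RPKM, and Ptprz1, a receptor phosphatase gene, fell from 167 ± 14.6 to 91.6 ± 14.7 RPKM. Among the 20 genes of maturing oligodendrocytes 4 had a region, of which 3 rose and none fell, and on the whole list 19 rose and none fell. Cldn11, the claudin of myelin, had a region at 16.7 kb shared with SOX3, and rose from 4.81, 5.12, 7.04 and 5.64 RPKM to 99.9, 65.6 and 115.0 RPKM (log2 change 4.00 ± 0.22, adjusted p = 6.51e-07, edgeR). Nkx6-2, a homeodomain factor of this lineage, had a region at 52.04 kb shared with SOX3 and rose from 14.7 ± 1.15 to 58.2 ± 19.1 RPKM. Opalin, a myelin gene, had 3 reads summed over the GPC libraries and 99, 36 and 117 in the glia libraries.

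Progenitor genes with a region moved both ways, with 4 rises and 4 falls among 10 tested, and the whole list gave 8 rises and 10 falls among 23 tested. Fabp7, a fatty acid binding protein gene of radial glia, had 1 region 40.6 kb upstream shared with SOX3 and fell from 5529 ± 252 to 1659 ± 34.2 RPKM. Vim, an intermediate filament gene, had a region 2320 bp downstream of its start site and stood at 1258 ± 66.4 and 1324 ± 88.4 RPKM, and its change did not pass the test. Notch1, a receptor that keeps progenitors undifferentiated, had 3 regions, of which 2 were shared with SOX3, at 3094 bp downstream (chr2:26355948-26356548) and 29.6 kb upstream. It gave 47.6, 42.3, 36.1 and 44.9 RPKM in GPC and 24.5, 27.6 and 24.9 in glia, a log2 change of -0.77 ± 0.09 (adjusted p = 3.58e-05, edgeR). The ligand gene Jag1 and the receptor gene Notch2 also fell, with log2 changes of -0.70 and -0.57, the latter with overlapping groups and not without glia replicate 3 (adjusted p = 0.0502). On the whole Notch list of 22, 5 rose and 11 fell.

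The paired genes of FGF and MAPK signalling all fell, as did most of that list whether paired or not. These were the 4 genes Etv5, Spred1, Spred2 and Dusp4 of a list of 18, of which 15 fell and 2 rose. Over all tested genes 35.2 percent fell. Etv5, an ETS factor induced by FGF, had 3 regions, 1 of them 10.7 kb downstream (chr16:22428809-22429409) and shared with SOX3. It stood at 190, 201, 139.5 and 181 RPKM in GPC and at 14.6, 13.5 and 14.1 in glia (log2 change -3.68 ± 0.13, adjusted p = 9.31e-09, edgeR). Dusp4, a MAP kinase phosphatase gene, fell from 10.5 ± 0.708 to 2.26 ± 0.222 RPKM, and Spred2 and Spred1, inhibitors of the Ras pathway, had log2 changes of -2.12 and -1.35. The regions of Dusp4 and Spred2 were shared with SOX3, at 127 and 400.1 kb upstream.

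Hedgehog genes were paired with 6 regions, the farthest at 100.9 kb. Ptch1, the Hedgehog receptor and a target of the pathway, had a region 10.6 kb downstream and fell from 35.8 ± 4.55 to 16.2 ± 0.633 RPKM. Gas1, a co-receptor gene, had a region at 7432 bp shared with NFIA and fell from 53.0 ± 3.11 to 26.7 ± 1.13 RPKM. Gli2, a transcription factor gene of the pathway named after its values were seen, had a region at 56822 bp shared with NFIA and rose from 2.41 ± 0.0812 to 3.30 ± 0.357 RPKM (log2 change 0.42 ± 0.10, adjusted p = 0.00300, edgeR). Of the 5 paired genes 1 rose and 2 fell, and on the whole list of 12, 3 rose and 5 fell. Shh, the ligand gene, had 2 regions but was low, at 0.365 RPKM (GPC) and 0.560 RPKM (glia). Its change did not pass the test (adjusted p = 0.208, edgeR), but without GPC replicate 3 it did (log2 change of Shh 0.81, adjusted p = 0.0399). Among growth factor receptors Ntrk2, the BDNF receptor gene, had 2 regions, 166 kb and 284 kb downstream, the nearer shared with NFIA. It gave 24.6, 25.1, 50.5 and 25.9 RPKM in GPC and 319, 315 and 302 in glia, a log2 change of 3.30 ± 0.27 (adjusted p = 1.28e-05, edgeR). Of the 3 paired cell cycle genes, Mki67, Aurkb and E2f1, all fell, as did all 25 genes of that list. The 3 regions of Aurkb are in a run and all overlap NFIA. The summed level of the list was lowest in GPC replicate 3 (1573 RPKM against 1870 to 1969 in the other GPC libraries).

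Cartilage genes, the known SOX9 targets outside the nervous system, were paired in 6 cases, among them Sox5, Sox6 and Sox9. Col2a1, the collagen of cartilage, had a region 2193 bp downstream of its start site and was low at 0.386, 0.357, 1.93 and 0.338 RPKM in GPC and 1.37, 1.23 and 2.25 in glia. The groups overlapped through GPC replicate 3 and the change did not pass (adjusted p = 0.212, edgeR), but without that library it did (log2 change of Col2a1 2.21, adjusted p = 7.46e-06). Among endothelial genes Cdh5 had 3 regions and no more than 0.0502 RPKM in any GPC library. The paired mesenchymal genes Col3a1, Twist1 and Twist2 all rose, as did 13 of the 14 genes on that list, whose summed level ran from 182 to 194 RPKM in GPC and from 754 to 926 RPKM in glia. Whether mesenchymal cells took part in changes of other targets was not tested.

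The largest rises among targets with a region within 100 kb were those of Gfap, Padi2, Bbox1, Opalin, Elf5, Fxyd1, Sv2b and Aqp4. Padi2, a peptidylarginine deiminase gene, had a region 23.5 kb downstream and went from 0.562, 0.252, 1.05 and 0.493 RPKM in GPC to 182, 186 and 181 in glia. Fxyd1, a regulator of the sodium pump, had a region 276 bp upstream (chr7:31840652-31841252), with no CCAAT copy in its upstream sequence, and went from 0.256, 0.410, 1.43 and 0.890 RPKM to 51.4, 43.8 and 56.6, a log2 change of 5.66, or 6.35 as the log2 change of Fxyd1 without GPC replicate 3. Summed over the GPC libraries Bbox1 had 4 reads and Elf5 had 1, too few for the size of the change. The largest falls were those of Fbln2, Kcng1, Etv5, Dcpp2, Fam64a, Plvap, Egr2 and Spsb4. Fbln2, a matrix protein gene, had a region 89.7 kb downstream shared with SOX3 and went from 174, 168, 166 and 174 RPKM to 3.69, 3.64 and 3.92 (-5.52 ± 0.08, adjusted p = 7.01e-11, edgeR). Egr2, a zinc finger factor of hindbrain and Schwann cells, had a region 919 bp downstream of its start site and gave 2.27, 2.32, 7.56 and 2.68 RPKM in GPC and 0.530, 0.342 and 0.407 in glia. Its log2 change was -3.13, and without GPC replicate 3 the log2 change of Egr2 was -2.46. Dcpp2 had 4 reads in all in glia.

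Genes with 3 or more regions outside the runs changed about as often as others, with 18 rises (28.1%) and 25 falls (39.1%) among 64 tested, beside 35.2 percent of all tested genes in each direction. Changes of at least 2-fold were 15.6% up and 12.5% down, beside 16.5 and 9.24 percent. The following 4 were chosen after their values were seen. Sall3, a zinc finger factor, had 3 regions between 166 and 244 kb upstream and went from 75.7, 74.3, 70.7 and 77.3 RPKM in GPC to 11.2, 10.8 and 12.02 in glia (log2 change -2.74 ± 0.07, adjusted p = 2.04e-09, edgeR). Cdh11 had 4 regions from 42.7 to 114 kb downstream, of which 2 were shared with SOX3, and went from 12.7, 14.2, 20.0 and 13.1 RPKM to 59.2, 62.8 and 54.3 (1.93 ± 0.15, adjusted p = 3.89e-06). Ednrb, the endothelin receptor gene of glia, had 3 regions at 65.3, 66.03 and 80.0 kb downstream and went from 138, 152, 233 and 155 RPKM to 362, 387 and 328 (1.05 ± 0.17, adjusted p = 0.00052). Rgma, a guidance molecule gene, had 3 regions at 72.9, 178 and 190 kb upstream, and all 3 were shared with SOX3. It gave 132, 118, 194 and 126 RPKM in GPC and 225, 187 and 239 in glia with overlapping groups, and its call (adjusted p = 0.0183) was lost without glia replicate 1 or 3 (adjusted p = 0.0551 and 0.0774).

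**Figure D5:**
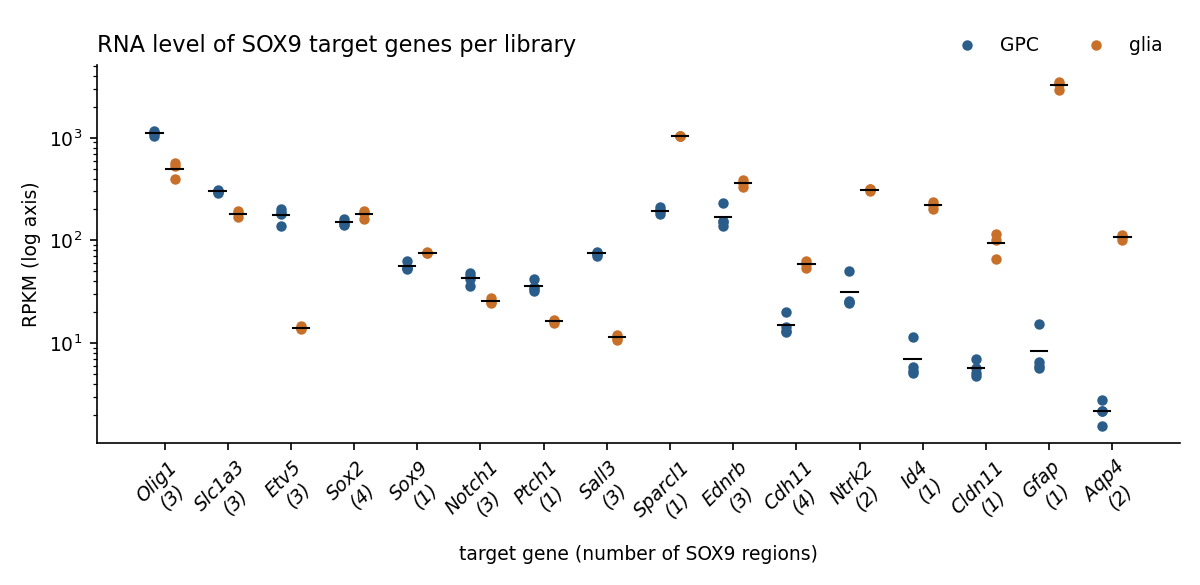
RNA level in RPKM (log axis) of 16 SOX9 target genes, with the number of SOX9 regions in brackets. Points are the 4 GPC and 3 glia libraries and bars their means. The genes from Olig1 to Sall3 include Etv5, Notch1, Ptch1 and Sall3, which are lower in glia, and those from Sparcl1 to Aqp4 are higher in glia in every library.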

How the data were processed

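The authors deposited 1 SOX9 peak list over 3 samples, with a gene and a signed distance per peak. Peaks were called with MACS or MACS2 on mm9, per the submitters' processing notes. All 2943 rows are 601 bp wide and carry no score. No label or header names the tool that paired genes with peaks, the aligner, the counter or its use of strand, and reads of overlapping genes or close copies cannot be told apart. The authors deposited a score with each NFIA peak without saying what it measures. Read counts per gene were deposited by the authors as whole numbers. RPKM values were computed by the authors, per the file headers, and served for levels only.

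Rows overlapping by 1 bp or more were merged, and a region took the smallest distance of its rows. Gene names matched the expression table directly (1985), through RefSeq synonyms (67) or not at all (135). Counts were fitted with edgeR 4.0.16 in R 4.3.3 (TMM, filterByExpr, robust quasi-likelihood test, Benjamini-Hochberg 0.05, two-sided), as glia against GPC over 13588 genes. The SE given with a log2 change was derived from this test, as the size of the change divided by the square root of its F statistic. The script was tested on simulated data. A region was shared where it overlapped a peak of another factor by 1 bp or more. Alternatives used DESeq2 1.42.0, other filters, merging and overlap rules, a replicate block and each library left out.

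The members and gene lists were chosen with earlier results of these data known. Named genes are Sox9, Sox3, Sox2, Sox10 and Nfia, the 12 with most regions (ties by higher GPC level, which left out Tex14, Pabpc6 and Casp16 with 5 regions each), the 8 promoter-bound genes highest in GPC, the 8 largest rises and 8 largest falls (at least 1 RPKM, groups apart, region within 100 kb), 3 per list with most regions, the 5 regions nearest a start site shared by all 3 factors and the 3 farthest regions. Genes outside this rule are said to be chosen after their values were seen, as were Vim, Pax6, Pdgfra, Nkx2-2, Fabp7, Dusp4, Col2a1 and Nes. Samples of input and H3K27Ac were not analysed here.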

Additional observations from a re-analysis of the deposited data

Results flagged for a closer look

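In 20 of 94 named genes with at least 1 RPKM in a GPC library, 1 of the 4 GPC libraries lay apart from the other 3 by a gap larger than the 95% critical value of Dixon's test. Chance alone flags about 1 in 20 groups, and 18 of the 20 cases were in GPC replicate 3. In that library Sox9 (62.7 RPKM), Sox3 (121.9), Nfia (15.8), Lsamp (20.3), Hnrnpl (266.7), Gfap (15.4), Egr2 (7.56), Jag1 (8.10), Id4 (11.5), Ntrk2 (50.5) and Col2a1 (1.93 RPKM) were higher than in the other GPC libraries. Aldh1l1 (17.0 RPKM), Spred2 (32.2), Mki67 (34.5), Col3a1 (49.7), Mitf (0.928), Sorl1 (0.723) and Pdgfra (16.2 RPKM) were lower there. The remaining cases were Zfp868 in GPC replicate 2 (12.2 RPKM) and Map2 in GPC replicate 1 (137 RPKM), both lower than in the other libraries.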

How the results depend on the processing

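No setting reversed a direction of a main result. Counts are taken as kept when within 1.5 times the main count, which holds for the fall with regions within 100 kb alone to 1535 targets, 446 rises, 422 falls and 57 listed genes. Within 5 kb instead of 1 kb of a start site lay 13.9% of the regions. The median level of the targets was 7.41 RPKM with regions within 100 kb alone and 6.56 RPKM without the regions in runs, and the share of expressed targets was 71.3% at 0.5 RPKM or more and 53.7% at 5 RPKM or more. Changes of at least 2-fold left 320 rises and 184 falls. The overlap with NFIA was 26.1% with centres within 150 bp, 26.5% without the regions in runs and 25.5% with the upper 50% of NFIA peaks by score. Leaving out the regions in runs was chosen after seeing the data. Leaving out 1 library at a time gave 556 to 659 rises and 501 to 596 falls, medians of 6.32 to 6.41 RPKM and 66.9% to 67.2% of targets at 1 RPKM or more. Replicate numbers did not pair the libraries (correlations of deviations -0.0202, 0.138 and 0.0684), and a replicate block gave 581 rises and 518 falls. DESeq2 gave 596 and 544. Of the single named genes, 14 settings ended a call, in Sox2, Pcdh9, Map2, Notch2, Atoh8 and Rgma. Another 9 settings added one, in Sox6, Qk, Stmn2, Shh, Tcf7l1 and Col2a1. Leaving out GPC replicate 3 added the calls of Qk (log2 change 0.22, adjusted p = 0.0172, edgeR), Stmn2 (-1.15, 0.00234), Shh (0.81, 0.0399) and Tcf7l1 (0.26, 0.00694). It also added that of Col2a1, given above. Binding values come from 1 list without replicate spread or peak heights, so their precision covers counting error alone.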
